A study of Mus musculus with 5 samples.

Results

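The mitochondrial ribosomal proteins are encoded by nuclear genes whose symbols begin with Mrpl (large subunit) or Mrps (small subunit). They were followed in natural helper cells of the lung, a kind of innate lymphocyte without antigen receptors that releases type 2 cytokines. Members were the symbols made of Mrpl or Mrps, a number and at most 1 letter, among probe sets annotated to a single gene, with the brightest probe set taken for each gene. This gave 77 genes of the 19938 measured, 48 of the large and 29 of the small subunit. Mrpl53 was not analysed here, because its symbol stood only on a probe set shared with other genes.

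The cells came from lungs of naive C57Bl/6 mice, 6 to 8 weeks of age, and had been sorted as CD25+ CD127+ Sca-1+ cells that were c-Kit-/low and Lineage-. The 2 PMA/ionomycin samples were kept for 3 days in serum-containing medium with 60 ng/ml of PMA, an activator of protein kinase C, and 500 ng/ml of the calcium ionophore ionomycin. The 3 unstimulated samples were lysed directly after the sort. All samples were bulk total RNA hybridised to 1-colour Affymetrix arrays, and the deposited log2 values are used below. No cultured sample without the drugs was among the 5, so culture and stimulation cannot be told apart. Nothing in the labels tells whether the replicates were separate mice or separate cultures. The p-values therefore reflect just the variation among these samples, possibly of technical origin. In bulk RNA, fewer cells of a type and less RNA per cell cannot be told apart either.

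Mitochondria keep a ribosome of their own, which translates the few proteins encoded by mitochondrial DNA, all of them subunits of the respiratory chain and ATP synthase. Its proteins are made in the cytosol and imported, and they join ribosomal RNAs that are transcribed inside the organelle. Many members descend from proteins of the bacterial ribosome, and others were added in mitochondria. T lymphocytes are known to enlarge their mitochondria and to raise mitochondrial protein synthesis when they leave rest.

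Promoter sequence of the members is shown first, since these genes differed together between the groups. Windows of 300 bases, from 250 before to 50 after the annotated start, came from RefSeq (build GRCm38.p6) for 68 of the 77 members. Sequences are read 5′ to 3′ on the gene's strand, and positions count from the start. Letters were searched on both strands, and a match is a description of the sequence, not a binding site. GCGCA and GCGC with 1 base between them, letters bound by the respiratory chain regulator NRF1, occurred in 13 members (19.1%, against 7.85% of the 15614 array genes with a window and 5.19% of all 27025 genes with one). The special case with T as that base occurred in 3 (4.41%, against 1.61% of array genes and 1.07% of all). CCGGAAGT, bound by ETS factors such as GABP, was found in 12 members (17.6%, against 6.01% of array genes and 4.31% of all). AAGATGGC, bound by YY1, was found in 12 (17.6%, against 3.77% of array genes and 3.19% of all). CACGTG, the E-box of MYC and MAX, occurred in 5 members (7.35%, against 9.50% of array genes and 8.09% of all). In all, 34 members held NRF1, ETS or YY1 letters.

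The stretches below show NRF1, ETS and YY1 matches in members with large and with small differences, with the match in capitals. Those of Mrps22 (chr9:98601672-98601701, minus strand, first matched base at -11), Mrpl51 (chr6:125192099-125192128, plus strand, -90) and Mrps26 (chr2:130563731-130563760, plus strand, -15, in reverse) hold the ETS letters.
Mrps22: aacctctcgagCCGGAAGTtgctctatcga
Mrpl51: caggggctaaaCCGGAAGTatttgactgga
Mrps26: gctccgcggccACTTCCGGgccgggcgcag
Those of Mrpl44 (chr1:79775973-79776002, plus strand, -35), Mrpl45 (chr11:97315668-97315697, plus strand, -38) and Mrpl9 (chr3:94443298-94443327, plus strand, -28) hold the NRF1 letters.
Mrpl44: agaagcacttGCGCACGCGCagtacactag
Mrpl45: tggtttcattGCGCACGCGCgaacccactg
Mrpl9: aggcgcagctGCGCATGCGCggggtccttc
Those of Mrpl36 (chr13:73330968-73330997, plus strand, -30), Mrps18a (chr17:46111004-46111033, plus strand, 12) and Mrpl32 (chr13:14613258-14613287, minus strand, -242) hold the YY1 letters, with Mrpl36 and Mrpl32 matching in reverse.
Mrpl36: cgtgaccttacGCCATCTTtcttcctggcg
Mrps18a: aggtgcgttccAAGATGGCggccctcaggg
Mrpl32: cgcgctctGCCATCTTtacccggaaagtcg

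The mitochondrial ribosomal protein genes were higher after PMA and ionomycin in nearly every case, and by similar amounts in both subunits. Of the 77 members, 74 had a difference above 0, against 53.3% of all genes tested. The median difference (PMA/ionomycin minus unstimulated, log2) was 0.68, or 1.60-fold, while that of all genes was 0.00. In 68 members both PMA/ionomycin arrays lay above all 3 unstimulated arrays (88.3%, against 18.6% of all genes), in none did they lie below (14.0% of all genes), and in 9 the groups overlapped. All but 1 member (Mrps27) had a mean above the median of all probe sets (5.64). Among the 10356 genes above that level, 55.3% had a difference above 0 and 29.9% had PMA/ionomycin arrays above all unstimulated ones. Between arrays, 12359 of the 19938 genes held a value repeated to 5 decimals, but only 7 of the 77 members did. A value shared by arrays of both groups keeps the groups from separating, and the part of such repeats in the all-gene shares was not tested.

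Most of these differences did not pass the test for single genes. With limma and Benjamini-Hochberg adjustment over all genes, 2 members rose at an adjusted p under 0.05 (0.737% of all genes rose) and 0 fell (0.963% of all genes fell). At an unadjusted p under 0.05, 59 members were higher and 0 lower, where 11.3% of all genes were higher and 8.58% lower. An adjusted p under 0.1 was reached by 22 members, against 3.79% of all genes in that direction. A difference of 1 log2 or more was seen in 17 members, against 2.23% of all genes and 4.07% of those above the median level.

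**Figure D1:**
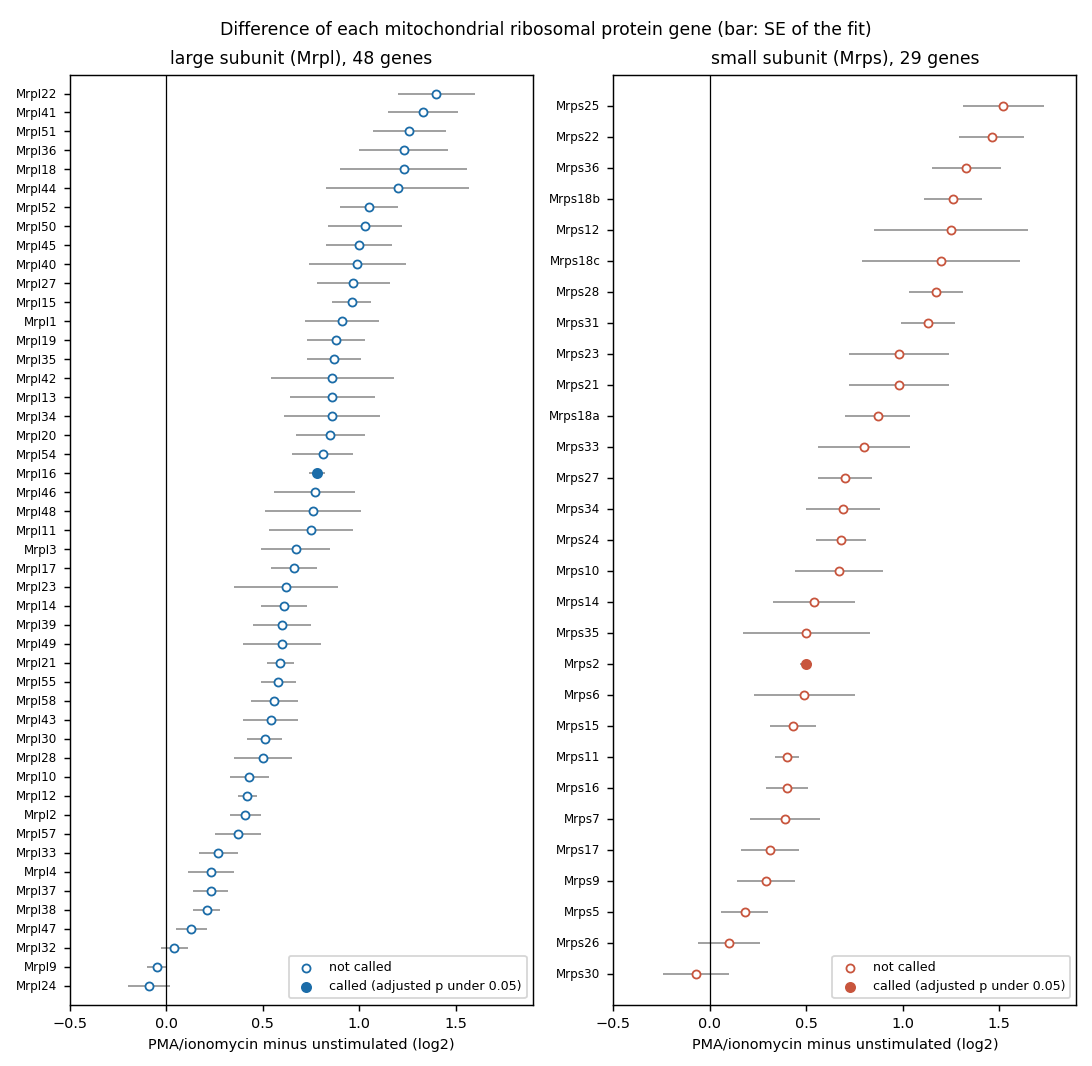
Difference (PMA/ionomycin minus unstimulated, log2) of each of the 48 large and 29 small subunit genes, with the SE of the fit as bars and called genes filled. Differences run between -0.09 (Mrpl24) and 1.52 (Mrps25), and the 2 filled points are Mrpl16 and Mrps2.

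Mrpl16 and Mrps2 were the members that passed the test. Mrpl16, the counterpart of a bacterial protein near the peptidyl transferase centre, had log2 values of 7.95 and 7.96 on the PMA/ionomycin arrays and 7.18, 7.12 and 7.23 on the unstimulated arrays (probe set 10461663). Its groups lay far apart relative to their spread, and it rose by 0.78 ± 0.04 (SE; 1.72-fold, adjusted p = 0.0257). Mrps2, whose bacterial counterpart helps hold the messenger on the small subunit, had 7.45 and 7.43 on the PMA/ionomycin arrays and 6.89, 6.94 and 6.98 on the unstimulated arrays (probe set 10470547). It rose by 0.50 ± 0.03 (SE; 1.42-fold, adjusted p = 0.0323). The arrays of each group agreed closely in both genes, with SDs of 0.01 among the PMA/ionomycin arrays and of 0.06 (Mrpl16) and 0.04 (Mrps2) among the unstimulated arrays. Leaving out any 1 of the 5 arrays ended both calls, with an adjusted p of 0.0504 to 0.0919 for Mrpl16 and 0.0549 to 0.127 for Mrps2.

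The large subunit catalyses peptide bond formation and holds the exit tunnel. Of its 48 members, 46 had a difference above 0, and the median difference was 0.71. The groups did not overlap in 43, with PMA/ionomycin higher (89.6%, against 18.6% of all genes). Mrpl22, the counterpart of a protein that lines the bacterial exit tunnel, had the largest difference. Its log2 values were 6.81 and 6.89 on the PMA/ionomycin arrays and 5.45, 5.15 and 5.75 on the unstimulated arrays, a difference of 1.40 ± 0.20. It did not pass the adjusted test (adjusted p = 0.0743). Mrpl41, a protein of the mitochondrial large subunit with no bacterial counterpart, followed with 10.17 and 10.02 on the PMA/ionomycin arrays and 8.55, 8.70 and 9.05 on the unstimulated arrays (1.33 ± 0.18). Mrpl51 had a difference of 1.26 ± 0.19, Mrpl36 of 1.23 ± 0.23, and Mrpl18, counterpart of a bacterial protein that binds 5S ribosomal RNA, of 1.23 ± 0.33. In all 5 of these genes the groups were separate, and the unstimulated arrays were the more widely spread.

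Members with known places in the large subunit differed unevenly. Mrpl10, Mrpl11 and Mrpl12 form the stalk that recruits translation factors, and Mrpl12 is also known to bind the mitochondrial RNA polymerase. Mrpl12 had 7.27 and 7.32 on the PMA/ionomycin arrays and 6.90, 6.81 and 6.93 on the unstimulated arrays, a difference of 0.42 ± 0.05 (adjusted p = 0.0542). Mrpl10 differed by 0.43 ± 0.10 and Mrpl11 by 0.75 ± 0.22. In the central protuberance, where a mitochondrial tRNA takes the place of the bacterial 5S RNA, Mrpl40 differed by 0.99 ± 0.25, Mrpl46 by 0.77 ± 0.21, Mrpl48 by 0.76 ± 0.25 and Mrpl38 by 0.21 ± 0.07. Mrpl44, whose fold resembles RNase III, and Mrpl45, which anchors the ribosome near the inner membrane, differed by 1.20 ± 0.37 and 1.0 ± 0.17. Mrpl58, a peptidyl-tRNA hydrolase built into the subunit, differed by 0.56 ± 0.12, and Mrpl57 by 0.37 ± 0.12. All 11 of these genes had both PMA/ionomycin arrays above the 3 unstimulated arrays, and none of them passed the adjusted test.

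The small subunit binds the messenger and decodes it. Of its 29 members, 28 had a difference above 0, and the median difference was 0.68. The groups did not overlap in 25, with PMA/ionomycin higher (86.2%, against 18.6% of all genes). Mrps25, found in mitochondria and not in bacteria, had the largest difference of all members. Its log2 values were 7.86 and 7.89 on the PMA/ionomycin arrays and 6.02, 6.42 and 6.63 on the unstimulated arrays, a difference of 1.52 ± 0.21 (2.87-fold, adjusted p = 0.0705). Mrps22, a mitochondrial addition whose human counterpart is mutated in inherited respiratory chain defects, had 9.21 and 9.07 on the PMA/ionomycin arrays and 7.44, 7.66 and 7.93 on the unstimulated arrays (1.46 ± 0.17, adjusted p = 0.0605). The groups of both genes stood apart by more than 1 log2. Mrps12, the counterpart of a protein at the bacterial decoding centre, had 8.80 and 8.64 on the PMA/ionomycin arrays and 6.97, 7.34 and 8.12 on the unstimulated arrays. Unstimulated array 3 of Mrps12 stood well above the other 2, and the SE of its 1.25 difference was 0.40. Mrps7 and Mrps9, both counterparts of bacterial small subunit proteins, differed by 0.39 ± 0.18 and 0.29 ± 0.15.

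Some Mrps genes have places that their symbol does not show. Mrps18a, Mrps18b and Mrps18c are related copies of the bacterial S18 protein, and Mrps18a and Mrps30 sit in the large subunit. Mrps18b differed by 1.26 ± 0.15, Mrps18c by 1.20 ± 0.41 and Mrps18a by 0.87 ± 0.17. Mrps36, now known as a part of the oxoglutarate dehydrogenase complex, differed by 1.33 ± 0.18. With Mrps18a and Mrps30 counted in the large subunit and Mrps36 in neither, the medians were 0.71 for the large and 0.68 for the small subunit. By either assignment the median differences of the subunits were 0.03 apart. The gap between the subunits' median log2 levels on each array had a pooled within-group SD of 0.12. On single arrays the large subunit median, as a deviation from each gene's unstimulated mean, was 0.78 and 0.61 on the PMA/ionomycin arrays and -0.14, 0.04 and 0.11 on the unstimulated arrays. That of the small subunit was 0.70 and 0.59 on the PMA/ionomycin arrays and -0.22, 0.06 and 0.18 on the unstimulated arrays, so the arrays kept the same order in both.

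**Figure D2:**
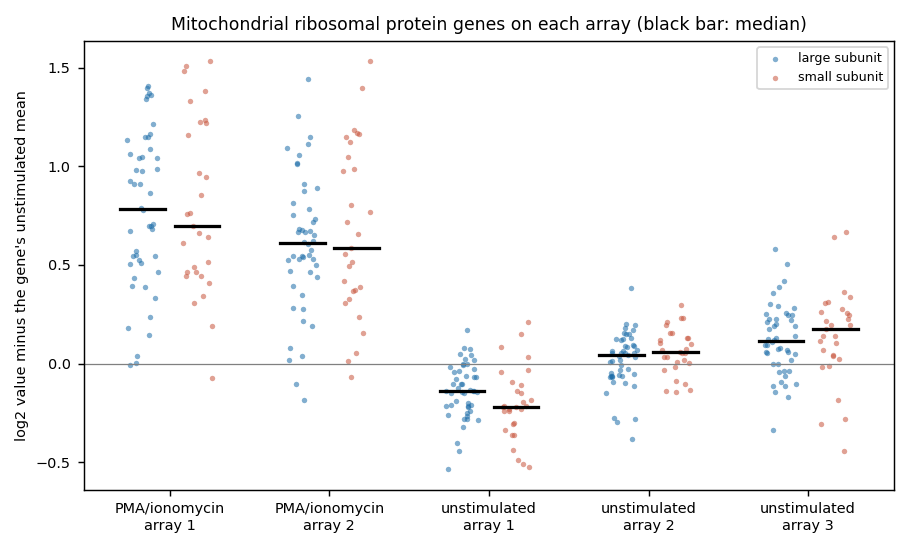
Each gene's log2 value minus its own unstimulated mean on each array, for large and small subunit genes, with black bars at the medians. Medians are 0.78 and 0.61 (large) and 0.70 and 0.59 (small) on the PMA/ionomycin arrays, and no median on an unstimulated array is above 0.18.

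Members listed as found in mitochondria only and members listed with a bacterial counterpart were described apart. The 28 members of mitochondria only had a median difference of 0.81. Of these, 26 were separate upward (92.9%, against 18.6% of all genes) and 10 were at 1 log2 or more (35.7%, against 2.23%). The 46 with a bacterial counterpart had a median of 0.60, with 40 separate and 6 at 1 log2 or more. Mrps18a, Mrps30 and Mrps36 were in neither class, and Mrps18b was counted as of mitochondria only although related to bacterial S18. With Mrps18b among the bacterial counterparts, an assignment added after seeing the data, the medians were 0.80 (27 genes) and 0.61 (47 genes). In the first assignment the medians stood in this order in the large subunit (0.79 and 0.64) and in the small subunit (0.89 and 0.50), and no test of that gap was made. The counts of separate members did not keep 1 order. They were 18 of 18 and 25 of 30 in the large subunit, but 8 of 10 and 15 of 16 in the small subunit. Both classes held members close to 0, such as Mrps26 (0.10) of mitochondria only and Mrpl24 (-0.09) with a bacterial counterpart.

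**Figure D3:**
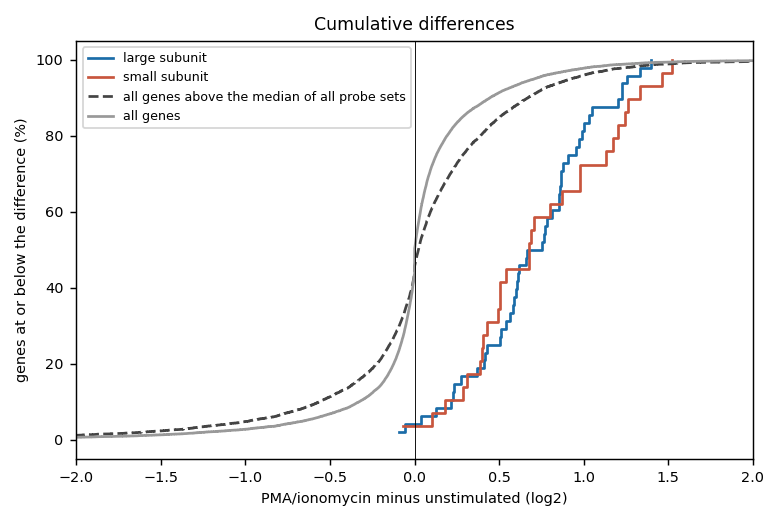
Cumulative percentage of genes by difference (PMA/ionomycin minus unstimulated, log2) for large subunit genes, small subunit genes, all genes above the median level and all genes; the axis ends at 2 in each direction. The curves of both subunits lie to the right of both background curves, with medians of 0.71 and 0.68 against 0.02 for all genes above the median level and 0.00 for all genes.

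In 9 members the groups overlapped: Mrpl4, Mrpl9, Mrpl24, Mrpl32, Mrpl47, Mrps5, Mrps26, Mrps30 and Mrps35. Mrpl24, the counterpart of another bacterial tunnel protein, had 9.26 and 9.08 on the PMA/ionomycin arrays and 9.22, 9.42 and 9.15 on the unstimulated arrays (-0.09 ± 0.11). Mrps30 had 7.69 on both PMA/ionomycin arrays and 7.85, 7.96 and 7.48 on the unstimulated arrays (-0.07 ± 0.17). Mrpl9 differed by -0.05 ± 0.05 and Mrpl32 by 0.04 ± 0.07, with values that interleaved between the groups. Mrps35 differed by 0.50 ± 0.33 and Mrpl4 by 0.23 ± 0.12, and neither passed the test. The SEs of the 9 differences were 0.05 to 0.33, and differences larger than the SE could also not be told from 0. Overlap therefore does not show that a gene was unchanged. Mrpl4, Mrpl9, Mrpl32 and Mrpl47 also held a value repeated to 5 decimals between arrays.

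For 8 members a second probe set measured the same gene. The brighter and dimmer probe sets gave 1.26 and 1.18 for Mrpl51, 0.62 and 0.65 for Mrpl23, 0.97 and 1.06 for Mrpl27, 0.80 and 0.71 for Mrps33, and 1.33 and 1.37 for Mrps36. They gave 1.33 and 0.64 for Mrpl41, and 0.18 and 0.41 for Mrps5. Mrpl47 disagreed most: its brighter probe set had 6.09 and 5.87 on the PMA/ionomycin arrays and 5.87, 5.87 and 5.81 on the unstimulated arrays. Its dimmer one had 6.86 and 6.27 on the PMA/ionomycin arrays and 5.10, 5.05 and 5.69 on the unstimulated arrays, a difference of 1.28 against 0.13. The brighter Mrpl47 probe set held values repeated to 5 decimals between arrays. The dimmer Mrps5 probe set also separated the groups, with 7.16 and 7.24 on the PMA/ionomycin arrays and 6.67, 6.92 and 6.76 on the unstimulated arrays. The statement that Mrpl47 and Mrps5 overlapped between groups therefore holds for 1 of the 2 probe sets of each gene.

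Within each group the arrays differed as well. PMA/ionomycin array 1 was above array 2 in 59 members, with a median gap of 0.17, while it was above in 37.8% of all genes. Among the unstimulated arrays, array 3 was highest in 51 members (66.2%, against 24.6% of all genes) and array 1 lowest in 56 (72.7%, against 49.0%), and the median of array 3 minus array 1 was 0.29. Ties went to the lower-numbered unstimulated array, and equal PMA/ionomycin values counted as not above. Repeated values were commoner over all genes than in members, so ties enter the all-gene shares more. Among genes above the median level, PMA/ionomycin array 1 was above array 2 in 46.1%. Unstimulated array 3 was highest there in 30.3% and array 1 lowest in 51.9%. Against unstimulated array 3, the nearest one, the median was still 0.60 higher on PMA/ionomycin array 1 and 0.47 higher on array 2. Fitted against that array alone, 76 of 77 members had a difference above 0 with a median of 0.56, where the median of all genes was 0.00.

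Marker genes of epithelium, endothelium and neutrophils ranked the arrays in the opposite order. The summed level of the 4 epithelial markers (log2 of the sum of linear values) was 8.00 and 8.50 on the PMA/ionomycin arrays and 11.43, 10.73 and 9.15 on the unstimulated arrays. That of the 3 endothelial markers was 7.96 and 8.21 on the PMA/ionomycin arrays and 10.49, 9.92 and 8.41 on the unstimulated arrays, and that of the 4 neutrophil markers was 6.66 and 6.76 on the PMA/ionomycin arrays and 10.02, 8.80 and 7.73 on the unstimulated arrays. All 3 sums were lowest on the PMA/ionomycin arrays, and unstimulated array 3 came nearest to these. The 7 macrophage and monocyte markers summed to 8.29 and 8.14 on the PMA/ionomycin arrays and 9.16, 8.90 and 8.51 on the unstimulated arrays, and the 5 T cell markers to 10.22 and 9.92 on the PMA/ionomycin arrays and 10.74, 11.13 and 10.57 on the unstimulated arrays. No gene of these 5 lists was below the lower quartile of all probe sets on every array. Sums of dendritic, B and NK cell markers were also lower on the PMA/ionomycin arrays, with unstimulated array 3 nearest. Fibroblast markers summed to 7.70 and 7.78 on the PMA/ionomycin arrays and 8.94, 7.90 and 7.92 on the unstimulated arrays. Those of mast cells and basophils summed to 5.90 and 5.99, and to 7.13, 7.84 and 7.40. In these last lists array 3 was not the nearest. Against unstimulated array 3 alone the members' median was 0.56, as given above. On that array each of these sums was still above those of both PMA/ionomycin arrays. The part of these cells in the result was not tested.

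**Figure D4:**
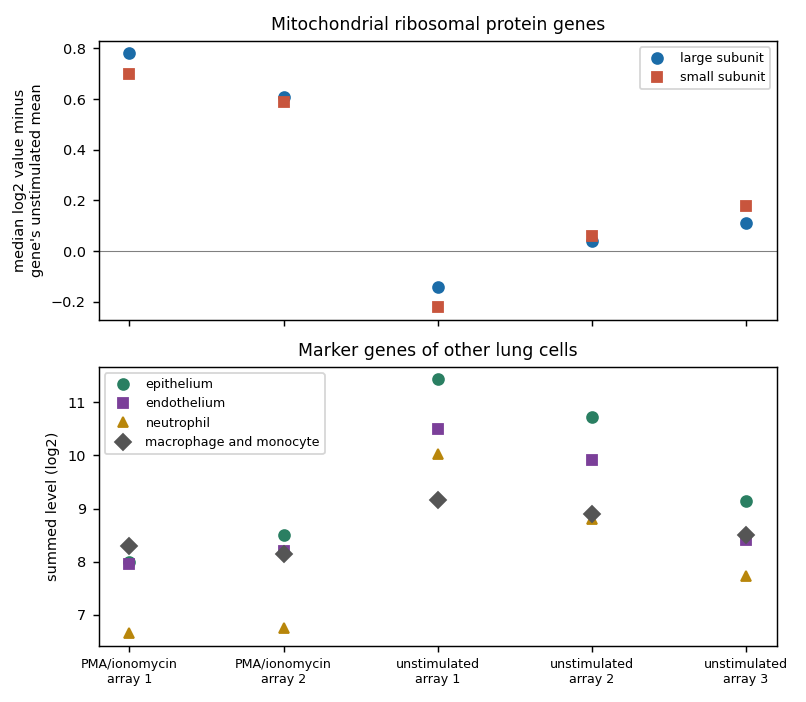
Upper panel, the median deviation of large and small subunit genes from their unstimulated mean (log2) on each array; lower panel, the summed level (log2) of marker genes of 4 other lung cell types. The PMA/ionomycin arrays are highest above and lowest below, and unstimulated array 3 lies nearest to them in both panels.

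The measured markers of the sorted cells lay above the median of all probe sets on every array but were lower in sum after PMA and ionomycin. The 10 measured natural helper cell genes of 12 listed summed to 13.31 and 13.35 on the PMA/ionomycin arrays and to 13.88, 13.92 and 13.79 on the unstimulated arrays. The listed genes Il1rl1 and Ly6a were not among the genes measured. Of these, 5 fell, with differences of -3.23 for Il17rb, -2.86 for Kit, -0.81 for Rora, -0.78 for Id2 and -0.77 for Il7r, the CD127 chain of the gate. Thy1 (-1.34) and Gata3 (-0.51) had lower means without passing the test. Il2ra, the CD25 chain used in the gate, had 10.87 and 10.91 on the PMA/ionomycin arrays and 10.72, 10.73 and 10.65 on the unstimulated arrays. Il5 had 10.55 and 10.65 on the PMA/ionomycin arrays and 10.15, 10.19 and 9.33 on the unstimulated arrays (0.71 ± 0.33). Ptprc differed by 0.03 ± 0.04, and none of Il2ra, Il5 and Ptprc passed the test. The 9 measured reference genes, commonly used as loading controls, averaged 10.125 and 10.056 on the PMA/ionomycin arrays and 9.6447, 9.8403 and 9.9459 on the unstimulated arrays. They were not level between the groups: Pgk1 differed by 0.83 ± 0.19 and Gusb by 0.71 ± 0.29, the rest by -0.11 (B2m) to 0.32 (Actb). With each array centred on the reference genes, the median of all genes moved to -0.28 and that of the members to 0.40, and 66 of the 77 members remained above 0.

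The other proteins of the mitochondrial ribosome carry symbols outside the family's naming. Of 4 measured, all had a difference above 0 (53.3% of all genes did). In 3 the PMA/ionomycin arrays lay above all unstimulated ones (18.6% of all genes and 29.9% of those above the median level). Gadd45gip1, which sits at the exit tunnel of the large subunit, rose by 0.81 ± 0.08 (adjusted p = 0.0492). Its values were 7.40 and 7.37 on the PMA/ionomycin arrays and 6.45, 6.59 and 6.68 on the unstimulated arrays, and its adjusted p was 0.0664 to 0.166 without any 1 array. Chchd1, a small subunit protein, had 9.08 and 8.93 on the PMA/ionomycin arrays and 7.86, 7.82 and 8.30 on the unstimulated arrays (1.01 ± 0.19, adjusted p = 0.1).

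Factors that build the mitochondrial ribosome differed less evenly. Of 23 assembly and rRNA modification genes, 20 had a difference above 0, and the median was 0.27. In 12 the PMA/ionomycin arrays lay above all unstimulated ones (52.2%, against 18.6% of all genes). Ddx28, an RNA helicase of large subunit assembly, differed by 1.19 ± 0.19 and Noa1, a GTPase linked to the small subunit, by 1.14 ± 0.27. Rbfa, which binds the immature small subunit, went the other way. It had 6.73 and 6.85 on the PMA/ionomycin arrays and 7.55, 7.65 and 7.68 on the unstimulated arrays, and fell by 0.84 ± 0.06 (adjusted p = 0.0378, and 0.0616 to 0.138 without any 1 array). It was the only gene called in this list.

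Of 15 translation factors and messenger partners, 14 had a difference above 0, and the median was 0.41. Separate upward were 8 (53.3%, against 18.6% of all genes). Called by limma were 0 (6 higher and 0 lower at an unadjusted p under 0.05). Slirp, which holds mitochondrial messengers together with Lrpprc, had 9.58 and 9.42 on the PMA/ionomycin arrays and 8.10, 8.41 and 8.57 on the unstimulated arrays (1.14 ± 0.17). Tufm, the elongation factor that delivers aminoacyl-tRNA, differed by 0.73 ± 0.15. Mtrf1, a release factor relative, differed by 0.76 ± 0.17. Slirp and Tufm had separate groups, and neither passed the adjusted test.

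Genes that transcribe mitochondrial DNA and process its RNA showed a smaller median of 0.21 over 13 genes, with 10 above 0. Separate upward were 6 (46.2%, against 18.6% of all genes). Called by limma were 0 (3 higher and 0 lower at an unadjusted p under 0.05). Tefm, the elongation factor of the mitochondrial RNA polymerase, had 7.25 and 6.83 on the PMA/ionomycin arrays and 5.32, 5.57 and 6.23 on the unstimulated arrays (1.33 ± 0.35). Prorp, the nuclease subunit of mitochondrial RNase P, differed by 0.86 ± 0.11. The polymerase itself, Polrmt, had 6.97 on both PMA/ionomycin arrays and 6.97, 6.95 and 6.97 on the unstimulated arrays. Tfam, which packages mitochondrial DNA and starts its transcription, had 7.83 and 7.57 on the PMA/ionomycin arrays and 7.28, 7.57 and 7.57 on the unstimulated arrays. The groups of Polrmt and Tfam overlapped. Both genes held values repeated to 5 decimals between arrays, so their equal values may not be separate readings.

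**Figure D5:**
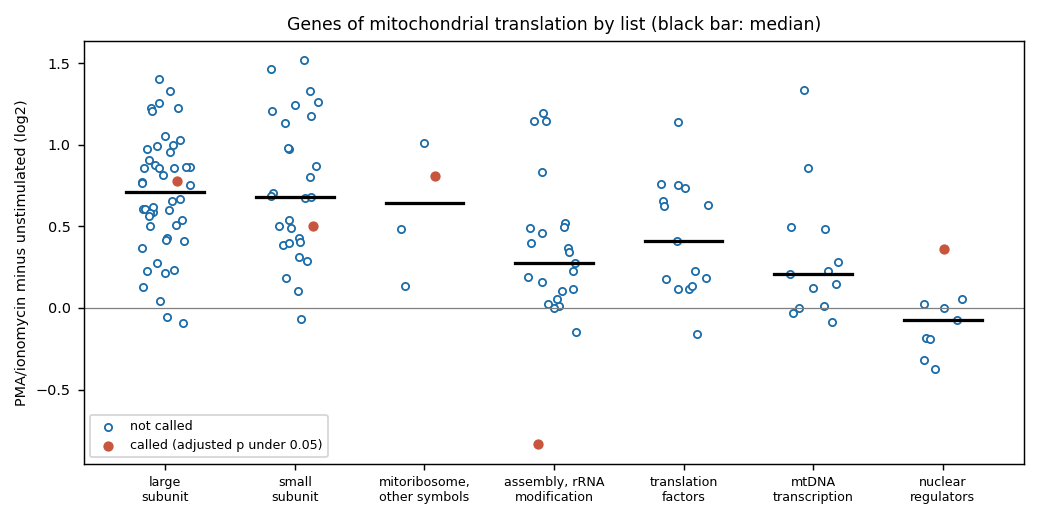
Difference (PMA/ionomycin minus unstimulated, log2) of each gene by list, with called genes filled and black bars at the medians. Medians are 0.71 and 0.68 for the 2 subunits, 0.64, 0.27, 0.41 and 0.21 for the next 4 lists and -0.07 for the nuclear regulators.

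Of 9 nuclear regulators of mitochondrial genes, 3 had a difference above 0 and the median was -0.07. Pprc1, a coactivator of the PGC-1 family that responds to serum, rose by 0.36 ± 0.02 (adjusted p = 0.0339), with 7.03 and 7.09 on the PMA/ionomycin arrays and 6.69, 6.71 and 6.71 on the unstimulated arrays. Without any 1 unstimulated array its adjusted p was 0.0714 to 0.123, and with arrays centred on the reference genes its difference was 0.08. Nrf1 had 6.67 and 6.72 on the PMA/ionomycin arrays and 6.74, 6.83 and 6.74 on the unstimulated arrays. Gabpa, the DNA-binding part of GABP, differed by 0.06 ± 0.04, and Myc by -0.37 ± 0.21. The transcript levels of Nrf1, Gabpa and Myc were each within 0.4 log2 of the unstimulated mean, and none of them passed the test. Nrf1 and Gabpa also held values repeated to 5 decimals between arrays.

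Within the family, members were set side by side by promoter match. The median difference was 0.87 for the 12 members with the ETS letters and 0.61 for those without. It was 0.51 for the 13 with the NRF1 letters and 0.75 for those without, and 0.69 for the 12 with the YY1 letters and 0.66 for those without. It was 0.85 for the 5 with the E-box and 0.67 for those without, and 0.04 for the 3 with T in the NRF1 letters and 0.68 for those without. Mrpl44 and Mrpl9, both printed above with NRF1 letters, differed by 1.20 and -0.05. No test was made of these medians.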

How the data were processed

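The deposited table holds log2 expression, which the submitters' processing notes credit to RMA (robust multi-array average). Its version and which arrays were normalized together are not given in the sources used here. No detection calls came with the values. Groups came from the sample titles. Probe sets were named by the platform annotation, and 21789 of 35556 had 1 symbol. All 19938 genes were fitted with limma 3.58.1 under R 4.3.3, by lmFit and eBayes without covariates or a filter. Calls needed a Benjamini-Hochberg adjusted p under 0.05 over all genes, and SE is that of the fit. The number of arrays limits the precision: 2 and 3 arrays can be split in 10 ways, which puts the smallest exact permutation p at 0.1, and no such test is given. In simulated data drawn from this comparison (19938 genes, 10 draws), 35.5% of genes changed by 0.58 and 54.5% of those changed by 1 were recovered, and 8.98% of calls were false. The changed genes were picked at random from all genes, and the noise was normal and independent between genes. The median SE was 0.08 over all genes but 0.16 for members, so these shares do not give the recovery of members.

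Members, lists and marker genes were chosen with earlier results of these data known. Named by rule were the called members, the 5 highest and 4 lowest differences of each subunit, members with a textbook role, and, from each other list, up to 4 called genes, the 2 largest differences and 6 regulators or factors. Other members are named where counts or second probe sets required it, after their values were seen, as were the natural helper cell genes. Promoter windows are RefSeq's, and the array's build was not needed.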

Additional observations from a re-analysis of the deposited data

How the results depend on the processing

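The direction of the members' median and of both subunit medians held under every alternative run, while the number of members called changed. Calls numbered 2 in the reported fit, 30 of 76 with genes above the median level, 10 of 76 above the lower quartile, 23 with arrays centred on their medians, 29 after quantile normalization, 36 with arrays centred on the reference genes, and 22 at an adjusted p under 0.1 but 0 under 0.01. Leaving out 1 array gave 0 to 1 (limma; 29 to 58 at an unadjusted p under 0.05), and unstimulated array 3 alone, added after seeing the data, gave 0 (28 unadjusted). Over all genes, 147 were called higher and 192 lower as reported, 660 and 526 with median centring, 825 and 729 with quantile normalization, 911 and 3113 with reference centring, 824 and 716 above the median level, 45 and 66 with robust variances, and 0 and 0 without unstimulated array 2 (3024 unadjusted). The prior degrees of freedom of eBayes, its weight on the variance shared by genes, were 0.65 as reported and 252.5 with reference centring. They were 1.37 with median centring and 1.45 after quantile normalization. The counts of these fits therefore rest on unlike variance estimates, and the cause of their shifts was not tested. The large subunit median was 0.43 with reference centring, 0.57 against unstimulated array 3 alone and 0.61 to 0.78 with 1 array left out; the small subunit median was 0.40 with reference centring. Reference centring moved all genes by -0.28 and turned Gabpa (-0.22), Mrpl32 (-0.24), Mrpl38 (-0.07), Mrpl47 (-0.15), Mrps26 (-0.18), Mrps5 (-0.10), Polrmt (-0.27) and Tfam (-0.05) below 0, none of them below that shift. It put the list medians at 0.36 for ribosomal proteins of other symbols, -0.01 for assembly, 0.13 for translation factors, -0.07 for transcription and -0.35 for regulators. Against unstimulated array 3 alone they were 0.20 for assembly, 0.26 for translation factors and 0.13 for transcription, which was 0.10 to 0.30 with 1 array left out. Either filter put the regulators at -0.13. With 1 array left out, differences ran from -0.19 to 0.00 for Mrpl24, -0.02 to 0.08 for Mrpl32, -0.01 to 0.22 for Mrps26 and -0.21 to 0.03 for Mrps30. Against unstimulated array 3 alone they were 0.02 for Mrpl24, 0.21 for Mrps30 and 0.00 for Polrmt. The replicate number as a block gave 0 calls (37 at an unadjusted p under 0.05; median 0.78) and turned Mrpl32 to -0.02, with 1 residual degree of freedom. Same-numbered samples correlated at -0.145 and -0.058 in their deviations, so the numbers were not taken to pair samples.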

Other observations

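Other gene families of protein synthesis and respiration gave the following values in the same fit. Of 54 cytosolic ribosomal protein genes, which build the ribosome outside mitochondria, 18 had a difference above 0, 6 had PMA/ionomycin arrays above all unstimulated ones (18.6% of all genes) and 12 had them below (14.0% of all genes), and the median was -0.01 (range -0.32 to 0.45). Their median level by array was 11.65 and 11.70 on the PMA/ionomycin arrays and 11.74, 11.77 and 11.69 on the unstimulated arrays. Of 75 nuclear-encoded subunits of the respiratory chain, which assemble with the products of the mitochondrial ribosome, 70 had a difference above 0, and the median was 0.52. In 57 the groups were separate upward (76.0%, against 18.6% of all genes and 29.9% of those above the median level) and in 0 downward. By limma, 1 gene of this family and 1 cytosolic ribosomal protein gene rose at an adjusted p under 0.05 (0.737% of all genes rose). Of 16 mitochondrial tRNA synthetases, which charge the tRNAs the mitochondrial ribosome reads, 9 had a difference above 0, and the median was 0.03. Separate upward were 5 (31.2%, against 18.6% of all genes and 29.9% of those above the median level). No test was made of the differences between these families, all of which share the same 5 arrays.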
